A study of Mus musculus with 26 samples.

Results

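The 8 genes described here belong to the retinoic acid pathway. They are the receptor genes *Rara*, *Rarb* and *Rarg*, the synthesis enzyme gene *Aldh1a2*, the binding protein genes *Crabp1* and *Crabp2*, the breakdown enzyme gene *Cyp26a1* and the target gene *Stra8*. They were chosen by name, and all 8 of 8 were found among the 15646 genes with expression values. All were also among the 19022 baited promoter fragments that had a listed contact in at least 1 cell state. Promoter capture Hi-C (PCHi-C), which enriches a Hi-C library for read pairs with one end on a promoter fragment, and RNA-seq were compared between mouse embryonic stem cells (ESCs), epiblast-derived stem cells (EpiSCs) and ESCs without *Nanog*. The WT ESCs were the E14Tg2a line (129P2/OlaHsd), and the *Nanog*-/- ESCs were the RCNβH-B(t) line derived from it, expanded under hygromycin. Both were grown on gelatin in serum medium with LIF. The EpiSCs were an embryo-derived 129S2 line grown on fibronectin in N2B27 medium with Activin A and bFGF. The strain label of all samples reads C57BL/6 and does not match these lines. State, line and medium therefore cannot be told apart between EpiSCs and WT ESCs, and each genotype rests on a single line. For WT ESCs the labels name 5 PCHi-C lanes and 3 RNA-seq samples, for EpiSCs 2 and 4, and for *Nanog*-/- ESCs 5 and 3.

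Retinoic acid is made from vitamin A by retinol and retinal dehydrogenases, is carried in the cytoplasm by CRABP proteins and is broken down by the CYP26 enzymes. It binds the retinoic acid receptors, which sit with retinoid X receptors on pairs of short half-sites in DNA and turn the genes beside them on or off. Pluripotent cells given retinoic acid leave the pluripotent state, and *Rarb*, *Cyp26a1* and *Stra8* are among the genes known to respond.

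The promoters of *Cyp26a1* and *Rarb* are shown because each holds a direct repeat of receptor half-sites, and that of *Stra8* because this gene differed most between the cell states. The windows run from 250 bases before to 50 after a RefSeq start, read in the direction of the gene (GRCm38.p6). The half-sites searched were the consensus AGGTCA, its variant AGTTCA, the form GGGTCA with a changed first base, and GGTTCA, which has both changes. They were searched on both strands, as direct repeats with spacers of 1, 2 or 5 bases (DR1, DR2 and DR5). Capitals mark the DR5 in the first and second sequence and single half-sites in the third.
Rarb (chr14:16575427-16575726, minus strand): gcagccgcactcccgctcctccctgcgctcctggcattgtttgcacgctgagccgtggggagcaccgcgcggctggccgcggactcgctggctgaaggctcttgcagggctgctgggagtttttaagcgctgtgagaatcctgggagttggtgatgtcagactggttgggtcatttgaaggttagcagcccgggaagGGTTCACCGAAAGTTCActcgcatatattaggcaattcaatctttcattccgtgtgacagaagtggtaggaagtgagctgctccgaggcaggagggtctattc
Cyp26a1 (chr19:37697558-37697857, plus strand): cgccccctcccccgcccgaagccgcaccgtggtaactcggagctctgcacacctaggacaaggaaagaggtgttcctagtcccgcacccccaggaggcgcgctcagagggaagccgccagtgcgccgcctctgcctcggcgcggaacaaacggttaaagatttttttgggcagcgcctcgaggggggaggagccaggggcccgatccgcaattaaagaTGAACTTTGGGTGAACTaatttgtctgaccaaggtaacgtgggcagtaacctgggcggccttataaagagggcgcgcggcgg
Stra8 (chr6:34920698-34920997, plus strand): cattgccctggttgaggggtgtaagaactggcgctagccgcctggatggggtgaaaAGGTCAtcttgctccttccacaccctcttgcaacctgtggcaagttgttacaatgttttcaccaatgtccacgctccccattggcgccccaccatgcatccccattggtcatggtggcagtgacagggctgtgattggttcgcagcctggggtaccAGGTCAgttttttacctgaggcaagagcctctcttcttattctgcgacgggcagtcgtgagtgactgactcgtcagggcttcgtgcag
RefSeq windows matched 7 of the 8 genes with 11 starts, and *Crabp2* had no entry. Of the 11 windows, 2 held a DR5 and 0 held a DR1 or DR2. Among all 32851 promoter windows a DR5 was found in 0.0974%, a DR1 in 0.222% and a DR2 in 0.268%. The *Rarb* repeat, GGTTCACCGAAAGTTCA, lies 53 to 37 bases before the start. The *Cyp26a1* repeat reads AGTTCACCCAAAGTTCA on the minus strand and lies 32 to 16 bases before the start. The *Stra8* window holds 2 single half-sites, and 13.1% of all windows hold 2 or more. A match of letters is a description and not a bound site.

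Expression values are RPKM, reads scaled to gene length and library size, which the authors deposited as 1 median per cell type. They carry no replicate error, so no test between states was made from them, and the sizes below are compared with a 2-fold threshold only. The median ratio of EpiSCs to WT ESCs was 1.885 over 9077 genes of at least 1 RPKM in both, and the EpiSC values were divided by it. Fold thresholds apply to the difference in log2(RPKM + 1), which understates the change of low genes. In bulk RNA, fewer cells of a type and less RNA per cell cannot be told apart.

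Of the 8 genes, 3 were at least 2-fold lower in EpiSCs than in WT ESCs (*Rarg*, *Aldh1a2* and *Stra8*) and 0 were higher, where 9.66% of all genes were lower and 10.4% higher. In *Nanog*-/- ESCs 2 genes were at least 2-fold higher than in WT ESCs (*Rarg* and *Stra8*) and 0 were lower, where 1.69% of all genes were higher and 1.35% lower. The median log2 difference of the 8 genes was -0.47 in EpiSCs and 0.36 in *Nanog*-/- ESCs, beside 0.00 and 0.01 over all genes. Without the scaling of EpiSCs the median over all genes moved to 0.46, with 4702 genes higher and 904 lower in place of 1633 and 1512, and 3 of the 8 genes were then higher (*Rarb*, *Crabp1* and *Crabp2*) and 1 lower (*Stra8*).

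*Rarg* was the most highly expressed receptor gene in each state. Its authors' median was 71.6 RPKM in WT ESCs, 55.3 RPKM in EpiSCs (29.3 scaled) and 159 RPKM in *Nanog*-/- ESCs. The log2 difference from WT ESCs was -1.26 in EpiSCs and 1.14 in *Nanog*-/- ESCs, and without scaling the EpiSC difference was -0.37, short of 2-fold. *Rara*, the broadly expressed receptor gene, was listed at 19.4 RPKM in WT ESCs, 25.8 RPKM in EpiSCs (13.7 scaled) and 21.0 RPKM in *Nanog*-/- ESCs. Its log2 difference was -0.48 in EpiSCs, turning to 0.39 without scaling, and 0.10 in *Nanog*-/- ESCs. *Rarb*, the receptor gene known as a direct target of retinoic acid, was low in each state, at 0.258 RPKM in WT ESCs, 1.80 RPKM in EpiSCs (0.957 scaled) and 0.612 RPKM in *Nanog*-/- ESCs. Both differences were positive (0.64 and 0.36), and that in EpiSCs passed 2-fold with a pseudocount of 0.1 (1.56) or without scaling (1.16). The 3 receptor genes thus stood in the same order, *Rarg* over *Rara* over *Rarb*, in every state.

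*Aldh1a2*, which encodes the enzyme that makes retinoic acid from retinal in the early embryo, was listed at 2.65 RPKM in WT ESCs, 0.889 RPKM in EpiSCs (0.472 scaled) and 1.78 RPKM in *Nanog*-/- ESCs. Its log2 difference was -1.31 in EpiSCs (-0.95 without scaling) and -0.39 in *Nanog*-/- ESCs. *Crabp1* and *Crabp2* encode cytoplasmic carriers, of which CRABP2 is known to hand retinoic acid to the receptors. *Crabp1* was listed at 53.1, 125 (66.5 scaled) and 68.4 RPKM in WT ESCs, EpiSCs and *Nanog*-/- ESCs. *Crabp2* was listed at 10.6, 27.1 (14.4 scaled) and 8.15 RPKM in the same order. Neither gene passed 2-fold against WT ESCs, with log2 differences of 0.32 and 0.41 in EpiSCs and of 0.36 and -0.34 in *Nanog*-/- ESCs. Without scaling the EpiSC differences were 1.23 and 1.28. *Cyp26a1*, the main enzyme of retinoic acid breakdown in the early embryo, was low in each state, at 1.59 RPKM in WT ESCs, 1.64 RPKM in EpiSCs (0.871 scaled) and 2.66 RPKM in *Nanog*-/- ESCs. Its log2 difference was -0.47 in EpiSCs, turning to 0.03 without scaling, and 0.50 in *Nanog*-/- ESCs.

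*Stra8*, a target of retinoic acid that germ cells need to enter meiosis, had the largest range of the 8 genes. It was listed at 6.16 RPKM in WT ESCs, at 0 in EpiSCs and at 42.3 RPKM in *Nanog*-/- ESCs, a log2 difference of 2.60 between the ESC lines. The level in *Nanog*-/- ESCs exceeded 84.2% of genes, against 55.4% in WT ESCs. Other germ cell genes were low in EpiSCs too. The 4 germ cell markers *Ddx4*, *Dazl*, *Sycp3* and *Prdm1* summed to 140 RPKM in WT ESCs (5.76 to 110), 3.84 scaled RPKM in EpiSCs (*Dazl* at 0, the others up to 2.04) and 125 RPKM in *Nanog*-/- ESCs (3.03 to 95.2). All 4 were at least 2-fold lower in EpiSCs. In *Nanog*-/- ESCs, where *Stra8* was higher, 0 of 4 were higher and 1 was lower (*Prdm1*, 3.61 against 9.54 RPKM in WT ESCs). Their part in the *Stra8* values was not tested.

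The genes with the pattern most like *Stra8* over the 3 states, by Euclidean distance of centred log2(RPKM + 1), were *Lama1* (distance 0.90), *Aard* (0.91) and *Tcf15* (0.92). *Lama1*, a laminin chain gene, was listed at 11.2 RPKM in WT ESCs, 1.79 scaled RPKM in EpiSCs and 49.0 RPKM in *Nanog*-/- ESCs. Those most like *Rarg* were *Mafa* (0.08), *Gm4934* (0.10) and *P2rx7* (0.10), all expressed at under 9 RPKM. Their ratios of WT ESCs to scaled EpiSCs were 4.33, 21.3 and 5.35, against 2.44 for *Rarg*. The likeness thus rests on a scale that understates the change of low genes. With 3 values per gene such likeness is a description.

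**Figure D1:**
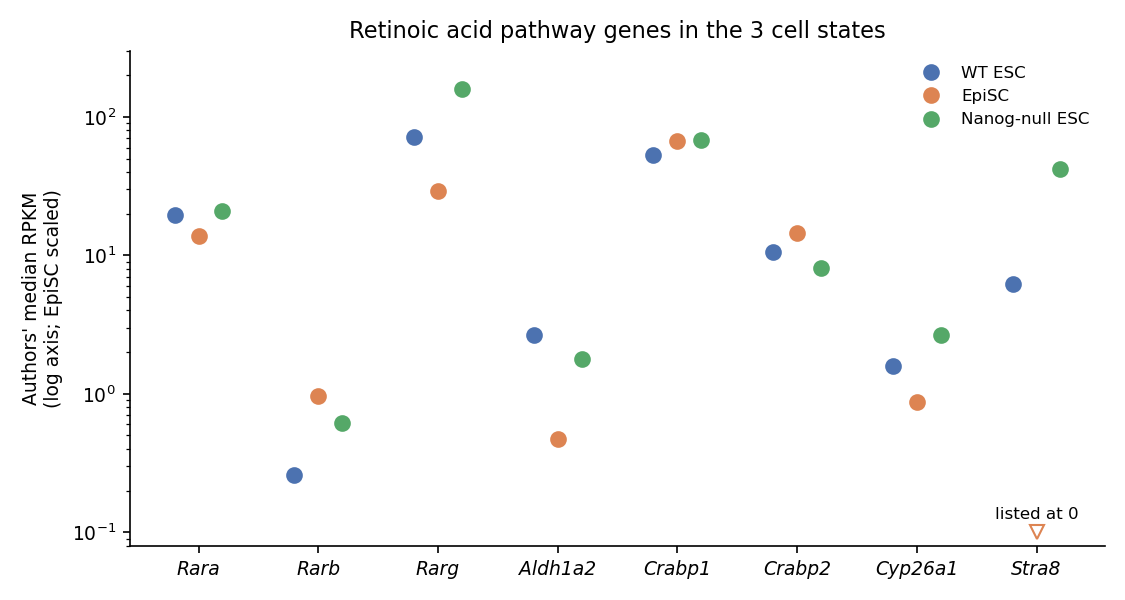
Authors' median RPKM of the 8 genes on a log axis, 1 point per cell state, with EpiSC values divided by 1.885; the open triangle marks a value listed at 0. *Rarg* and *Stra8* lie highest in *Nanog*-/- ESCs and lowest in EpiSCs, at 159 against 29.3 and 42.3 against 0 RPKM, while *Crabp1* stays between 53.1 and 68.4.

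Marker genes bear on which cells the values come from. *Nanog* itself was listed at 418 RPKM in WT ESCs, 361 RPKM in EpiSCs (191 scaled) and 22.3 RPKM in the *Nanog*-/- line. The 5 measured naive markers (*Klf2*, *Klf4*, *Esrrb*, *Dppa3*, *Tbx3*) summed to 694 RPKM in WT ESCs and 9.43 scaled RPKM in EpiSCs, with 5 of 5 lower. Where *Rarg* and *Stra8* were higher, in *Nanog*-/- ESCs, the 6 primitive endoderm markers summed to 69.4 RPKM against 4.49 RPKM in WT ESCs, with all 6 at 2.54 RPKM or more. They summed to 65.9 scaled RPKM in EpiSCs, where *Foxa2* alone gave 48.0. In EpiSCs the 5 mesendoderm markers summed to 278 scaled RPKM against 7.82 in WT ESCs. Of these, *T* alone gave 236, 4 of 5 were at least 2-fold higher, and *Mesp1* was lower (0.0224 against 0.330). The 4 fibroblast markers summed to 158 scaled RPKM in EpiSCs against 42.9 in WT ESCs. General pluripotency markers, 4 genes, summed to 1877 RPKM in WT ESCs, 1096 scaled RPKM in EpiSCs and 1836 RPKM in *Nanog*-/- ESCs. Of these, 1 was at least 2-fold lower in EpiSCs (*Sox2*, 72.6 scaled against 397 RPKM). Without scaling, *Sox2* was still lower in EpiSCs than in WT ESCs (137 RPKM). *Pou5f1* (1422 against 1159), *Sall4* (94.9 against 89.8) and *Lin28a* (414 against 231) were then higher. Naive markers summed to 461 RPKM in *Nanog*-/- ESCs, where 2 of 5 (*Klf4* and *Dppa3*) were at least 2-fold lower and 0 higher. The 5 measured primed epiblast markers summed to 385 scaled RPKM in EpiSCs against 280 in WT ESCs. Of these, 2 (*Fgf5* and *Fst*) were at least 2-fold higher, while *Dnmt3b* was lower (144 against 210), though higher without scaling (271). Neural and trophoblast markers summed to at most 6.28 RPKM in any state. The part of these cells in the results was not tested.

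A wider list of 40 genes of the pathway was read in the same way, and 34 were measured. Against WT ESCs, 13 of the 34 were at least 2-fold higher in EpiSCs and 4 lower, beside the 10.4% and 9.66% of all genes. The median log2 difference of the 34 was 0.53. In *Nanog*-/- ESCs 2 were higher and 1 lower, beside 1.69% and 1.35% of all genes, with a median of 0.32. With a pseudocount of 0.1 the numbers were 14 and 2, beside 884 and 549 of all 15646 genes.

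*Dhrs3*, *Nrip1* and *Stra6* stand in 2 groups of the list each, and the shares of all genes given above are the background of each group. Among 13 genes of retinoid handling, 4 were higher in EpiSCs and 1 lower, and 0 passed 2-fold in *Nanog*-/- ESCs. *Dhrs3*, a retinal reductase that turns retinal back to retinol, was listed at 1.60 RPKM in WT ESCs and 6.98 scaled RPKM in EpiSCs, and *Rbp4*, the retinol carrier of the blood, at 1.81 and 7.52. *Dhrs4* (17.5 and 48.8) and *Rdh11* (32.5 and 66.6), which encode retinal reductases as well, were the other 2. *Adh5*, an alcohol dehydrogenase gene with broad expression, was lower, at 288 RPKM in WT ESCs and 135 scaled RPKM in EpiSCs. The other CYP26 genes, *Cyp26b1* and *Cyp26c1*, were under 1 RPKM in each state.

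Among 11 receptors and co-regulators, 5 were higher in EpiSCs and 1 lower, and again 0 passed 2-fold in *Nanog*-/- ESCs. *Rxra*, the gene of the common partner of the retinoic acid receptors, was listed at 6.04 RPKM in WT ESCs, 19.6 scaled RPKM in EpiSCs and 7.50 RPKM in *Nanog*-/- ESCs. *Rxrg*, another retinoid X receptor gene, was listed at 2.39 RPKM in WT ESCs and 6.65 scaled RPKM in EpiSCs. The orphan receptor genes *Nr2f1* and *Nr2f2* were at 0.0454 and 0.0553 RPKM in WT ESCs and at 1.84 and 3.65 scaled RPKM in EpiSCs, and the co-repressor gene *Nrip1* at 1.68 and 4.60. *Ncoa3*, a co-activator gene, was lower, at 55.4 RPKM in WT ESCs and 12.7 scaled RPKM in EpiSCs.

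Among 13 measured targets, 6 were higher and 2 lower in EpiSCs, and 2 higher and 1 lower in *Nanog*-/- ESCs. The forkhead gene *Foxa1* (0.330 RPKM in WT ESCs and 17.7 scaled RPKM in EpiSCs) and the zinc finger gene *Zfp703* (1.14 and 25.8) differed most in EpiSCs, with log2 differences of 3.82 and 3.64. The zinc finger gene *Tshz1* followed, at 0.318 and 5.0, a difference of 2.19. The lower ones were *Gbx2*, at 10.4 RPKM in WT ESCs and 2.21 scaled RPKM in EpiSCs, and *Cdx1*, at 2.44 RPKM and listed at 0. *Gbx2* was higher in *Nanog*-/- ESCs, at 37.4 RPKM, and so was *Zfp703*, at 3.74 RPKM, with log2 differences of 1.75 and 1.15. *Egr1* was lower in *Nanog*-/- ESCs, at 29.9 against 73.0 RPKM.

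**Figure D2:**
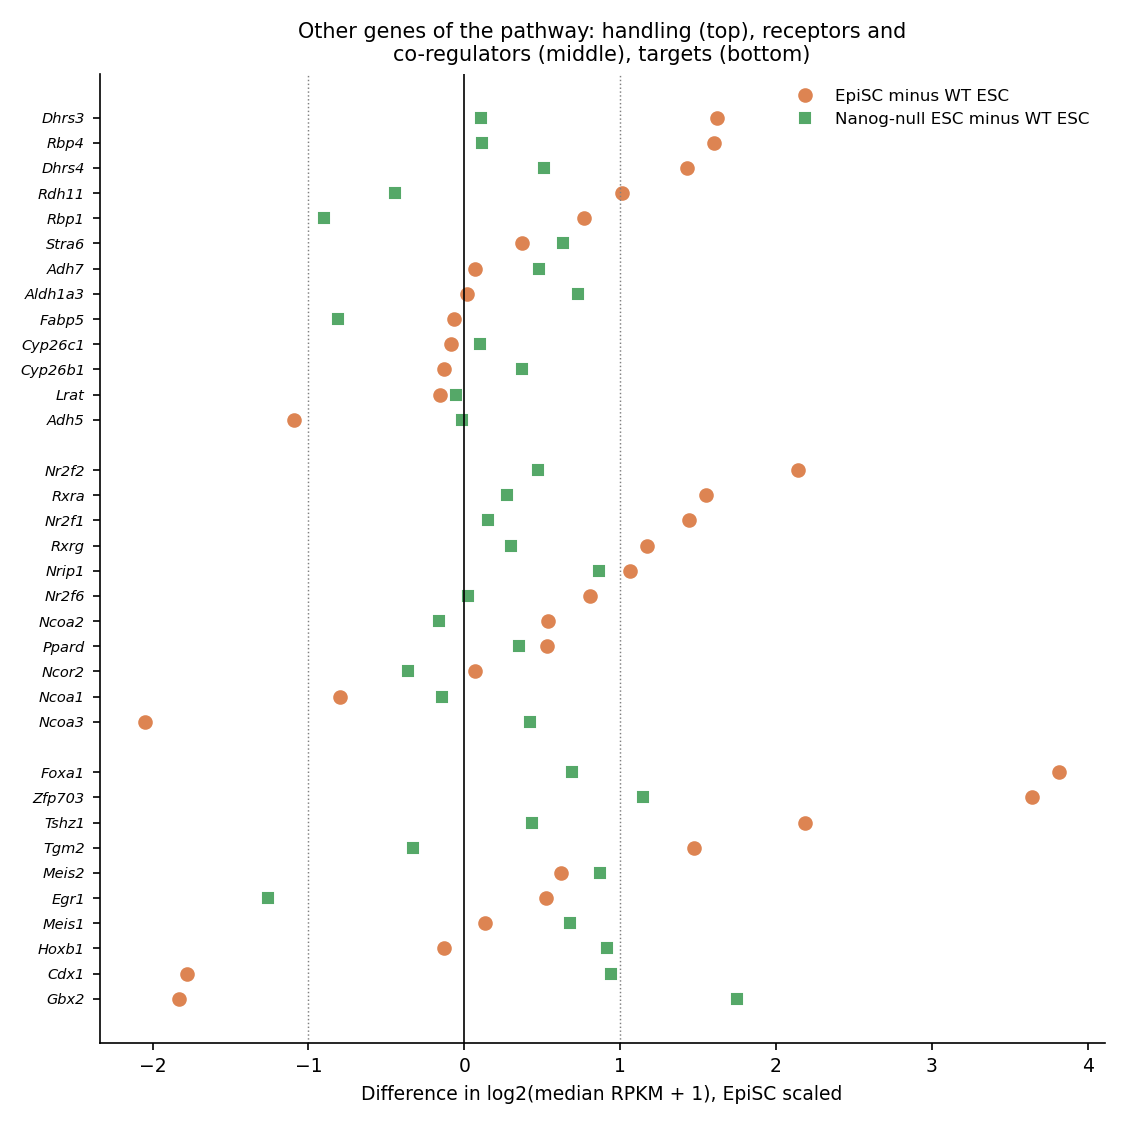
Difference in log2(median RPKM + 1) from WT ESCs for 34 other genes of the pathway, with EpiSCs as circles and *Nanog*-/- ESCs as squares; dotted lines mark 2-fold. In EpiSCs 13 genes lie right of the upper line and 4 left of the lower, and in *Nanog*-/- ESCs 2 and 1.

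The contacts of the 8 baited fragments were then read from the 3 PCHi-C lists. A contact is a pair of HindIII fragments joined by more read pairs than the background model of the CHiCAGO program expects, and each list is combined over replicates and holds pairs with a score of 5 or more. A pair that is not listed may have fewer reads, or as many reads at a lower score. The list of WT ESCs holds 100492 pairs (median 13 reads), that of EpiSCs 87369 and that of *Nanog*-/- ESCs 74931 (both 11 reads). Their median distances within a chromosome are 139, 141 and 74.1 kb. Intervals given below cover counting error only. The Wilson intervals also treat contacts of the same bait as independent, which they are not, so they are too narrow.

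The 8 baits had 65 contacts in WT ESCs and 59 each in EpiSCs and *Nanog*-/- ESCs, 117 different pairs in all, each within a chromosome. Of these pairs 21 were in all 3 lists, 15 in both ESC lists, 5 in WT ESCs and EpiSCs, 4 in EpiSCs and *Nanog*-/- ESCs, and 24, 29 and 19 in 1 list. Of the 65 contacts in WT ESCs, 21 were thus in both other lists (32.3%), beside 24.9% of all WT ESC pairs. In EpiSCs 26 were listed (40.0%, Wilson 95% interval 29.0% to 52.1%), beside 39.6%. In *Nanog*-/- ESCs 36 were listed (55.4%, 43.3% to 66.8%), beside 41.8%. *Cyp26a1* alone gave 16 of the 36, from 18 contacts. *Stra8* gave 8 of 21, *Crabp2* 4 of 8, *Rarg* 4 of 6, *Rara* and *Crabp1* 2 of 3 each, and *Aldh1a2* 0 of 6. The read numbers of the 26 and 36 shared pairs, taken relative to WT ESCs and to the median ratio of all shared pairs (0.833 in EpiSCs and 0.619 in *Nanog*-/- ESCs), ran from 0.480 to 1.68 and from 0.606 to 2.42. For 0 of the 26 and 0 of the 36 ratios did the exact binomial interval leave out 1, so no change in the strength of a shared contact was detected. These pairs had to pass the score in both lists.

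The 8 genes differed widely in their number of contacts. *Cyp26a1* had 18, 19 and 21 in WT ESCs, EpiSCs and *Nanog*-/- ESCs, and *Stra8* 21, 15 and 17, where at most 9.01% of all baits in a list had as many or more. *Rarb* had 0, 1 and 0, and the baits without any contact were 10.3%, 15.0% and 25.3% of all. All baits here means the 19022 with a contact in at least 1 of the 3 lists. Baits without a contact in any list are missing from these shares, which therefore understate the part without contacts. In WT ESCs *Rarg* (71.6 RPKM) had 6 contacts, *Crabp1* (53.1 RPKM) 3, *Rara* (19.4 RPKM) 3 and *Crabp2* (10.6 RPKM) 8. *Stra8* (6.16 RPKM) had 21, *Aldh1a2* (2.65 RPKM) 6, *Cyp26a1* (1.59 RPKM) 18 and *Rarb* (0.258 RPKM) 0. The *Rarb* bait covers only the most upstream starts of that gene.

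**Figure D3:**
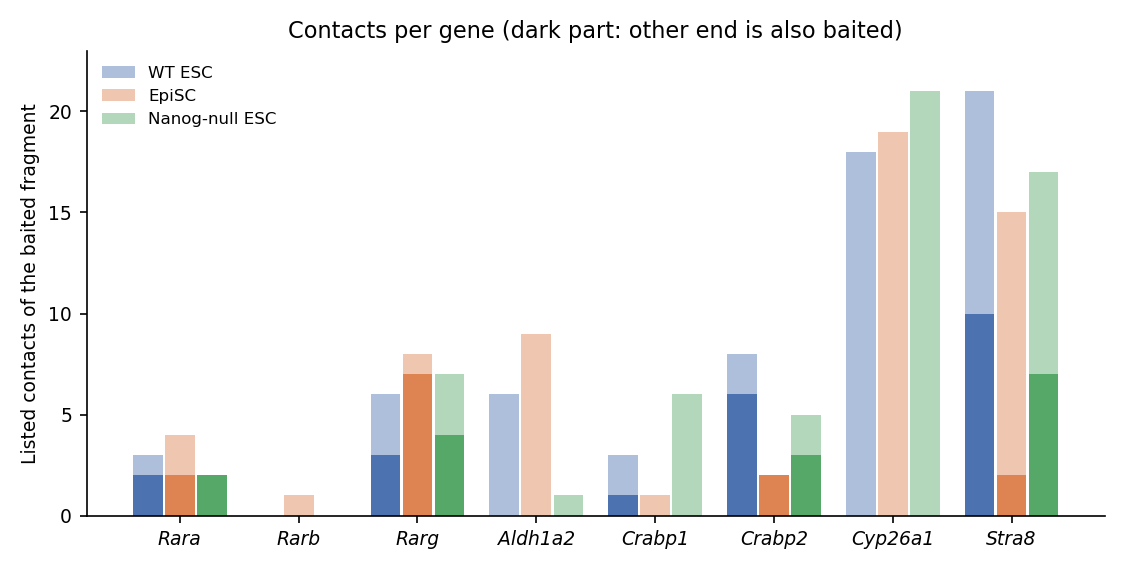
Number of listed contacts of each baited fragment in WT ESCs, EpiSCs and *Nanog*-/- ESCs; the dark part of a bar counts contacts whose other end is also a baited promoter fragment. *Cyp26a1* has 18 to 21 contacts and none with another bait, and *Stra8* has 10 of 21, 2 of 15 and 7 of 17 with another bait.

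The *Cyp26a1* bait (chromosome 19, 37696508 to 37702945, 6438 bp) holds the gene's start and its DR5. All 29 of its different contacts lay downstream and none reached another bait. In the gap between bait and partner there was no start of another protein-coding gene. The 11 contacts found in all 3 lists lay 181 to 245 kb from the bait (37879826 to 37945909). The highest score in WT ESCs was 19.7 from 19 reads (exact Poisson 95% interval 11.4 to 29.7), with a fragment 237 kb away (37936782 to 37937546), which scored 16.8 from 14 reads in EpiSCs and 9.46 from 8 reads in *Nanog*-/- ESCs. The fragment 235 kb away (37933511 to 37936139) had 16, 11 and 14 reads and scores of 15.6, 12.3 and 19.9. The fragment 181 kb away (37879826 to 37881645), which is intergenic, had 17, 13 and 13 reads and scores of 14.5, 13.1 and 16.1. These 3 partners were thus listed with scores over 9 in each state, while the gene itself was under 3 RPKM in each.

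Of the 29 partners 17 overlap *Myof*, which encodes a membrane repair protein and is annotated at 37899036 to 38043577, and 12 are intergenic. Over the 3 lists together, a run of 11 touching partner fragments spans 36.3 kb within *Myof* (37914023 to 37950346). A DR5 was found in 2 of the 29 partners, beside 1.5% of 88471 listed fragments, and over all 8 genes in 3 of the 117 partners. They read GGTTCATGTTGGGTTCA (37901843 to 37901859, plus strand, in a partner of the WT ESC list) and AGGTCACACCGAGTTCA (37945708 to 37945724, minus strand, in a partner of all 3 lists), and both overlap exons of *Myof*. Near contacts were listed in *Nanog*-/- ESCs, at 6.84 kb (52 reads, score 6.23) and 61.5 kb (10 reads, 5.71). The nearest in EpiSCs was 125 kb away (8 reads, score 5.01) and the nearest in WT ESCs 162 kb (9 reads, 5.54).

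The bait of *Cyp26c1*, the neighbouring gene of the same enzyme family 13.0 kb away, was contacted from the same region. It had 16, 6 and 9 contacts, and 8, 4 and 5 of them were partners of *Cyp26a1* in the same list. Over the 3 lists together 14 of the 29 *Cyp26a1* partners were also partners of *Cyp26c1*, and 13 had no other bait. The top fragment at 237 kb was also a partner of *Rbp4*, the retinol carrier gene, and of *Hhex*, a homeobox gene. *Cyp26c1* was listed at 0.108, 0.0840 (0.0445 scaled) and 0.187 RPKM in WT ESCs, EpiSCs and *Nanog*-/- ESCs.

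**Figure D4:**
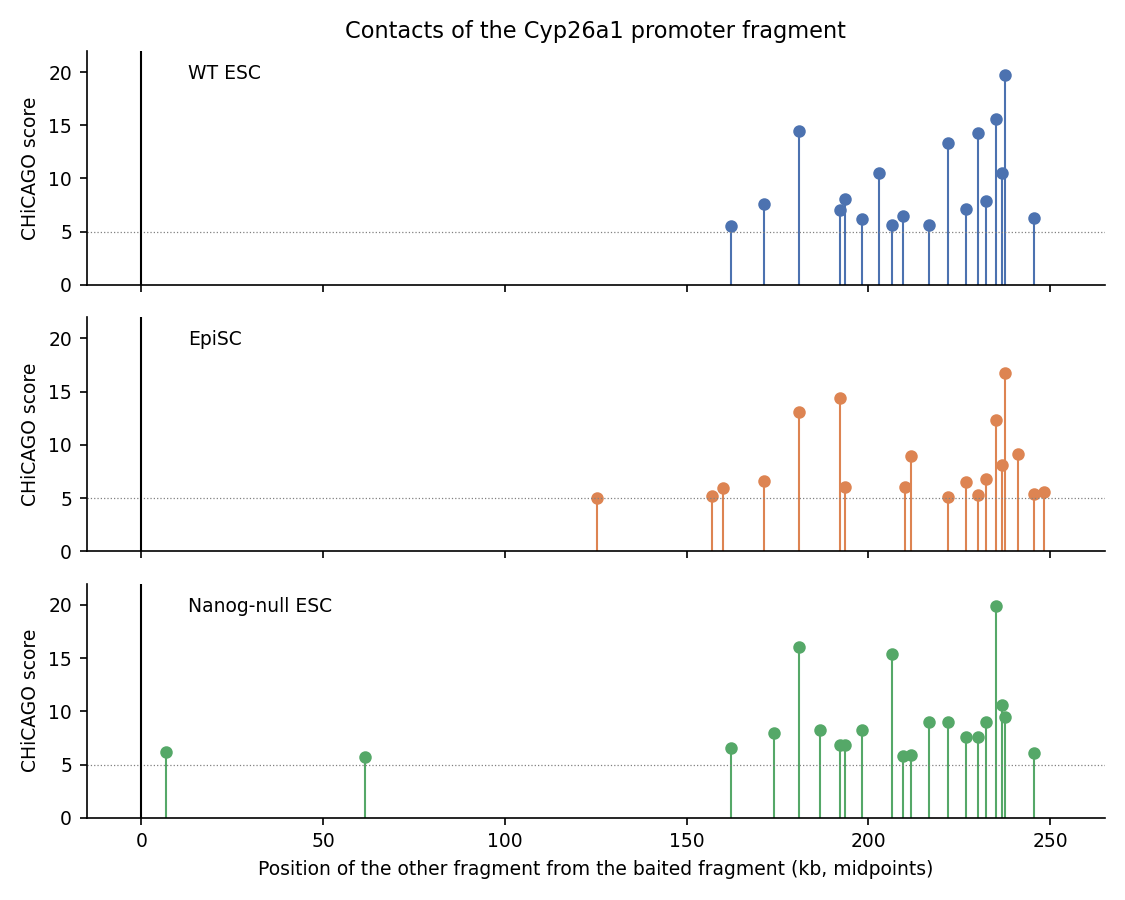
CHiCAGO score of each listed contact of the *Cyp26a1* bait against the position of the other fragment (kb from the bait, midpoints), 1 panel per cell state; the dotted line is a score of 5 and the vertical line the bait. In all 3 panels the highest scores stand between 181 and 245 kb, with 19.7, 16.8 and 19.9 as maxima.

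The *Stra8* bait (chromosome 6, 34918837 to 34926750) had 37 different contacts, 4 of them in all 3 lists. Most lay upstream of the gene, 19 of 21 in WT ESCs, 14 of 17 in *Nanog*-/- ESCs and 12 of 15 in EpiSCs, up to 628 kb away, and 35 of the 37 passed over at least 1 start of another protein-coding gene. In WT ESCs 10 of 21 contacts joined *Stra8* to another baited promoter fragment (47.6%, Wilson 95% interval 28.3% to 67.6%), in EpiSCs 2 of 15 (13.3%, 3.74% to 37.9%) and in *Nanog*-/- ESCs 7 of 17 (41.2%, 21.6% to 64.0%). Over all pairs of a list the share was 23.1%, 18.4% and 22%. The intervals of WT ESCs and EpiSCs overlap. Many of these promoter contacts lay near the score cutoff. At a score of 7 or more those left in WT ESCs were with *Agbl3*, *Bpgm*, *Gm14547* and *3110062M04Rik*. In EpiSCs *Gm14547* was left, and in *Nanog*-/- ESCs *Bpgm* and *3110062M04Rik*. The promoter partners were fewest in the state where *Stra8* was listed at 0, without a replicate to set this against. Between the ESC lines the order was the other way, with 7 in *Nanog*-/- ESCs (42.3 RPKM) and 10 in WT ESCs (6.16 RPKM). A link with expression was not tested.

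The highest score in WT ESCs, 15.6 from 10 reads (exact Poisson 95% interval 4.80 to 18.4), joined *Stra8* to the promoter fragment of *Agbl3*, a carboxypeptidase gene, 143 kb upstream (34778786 to 34780848). In EpiSCs the 173 bp fragment that touches it (34778613 to 34778785) was listed with 13 reads and a score of 8.75. *Bpgm*, the gene of a red cell glycolysis enzyme, was contacted at its baited fragment 443 kb upstream in WT ESCs (10 reads, 13.1) and *Nanog*-/- ESCs (5 reads, 7.31). *Cald1*, the caldesmon gene, was contacted at its baited promoter fragment 321 kb upstream in the same 2 lists (6 and 5 reads). Neither of these baited fragments was listed in EpiSCs, where other fragments inside the same genes were, among them those at 157 kb (11 reads) and 156 kb (12 reads) in *Cald1* and at 430 kb (7 reads) in *Bpgm*. The last was also listed in WT ESCs and the first pair in *Nanog*-/- ESCs. *Tmem140* was contacted 59.6 kb upstream, again in the 2 ESC lists (32 and 13 reads). Both baited fragments contacted in all 3 states were those of *3110062M04Rik*, 44.3 kb upstream (35, 23 and 27 reads, scores 8.49, 6.84 and 15.4), and *Gm14547*, 186 kb upstream (8, 5 and 3 reads, scores 10.9, 7.21 and 5.47).

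*Cald1* was listed at 15.4 RPKM in WT ESCs, 76.6 scaled RPKM in EpiSCs and 32.5 RPKM in *Nanog*-/- ESCs, and *Bpgm* at 11.3, 22.2 and 13.4. *Tmem140* was listed at 0.930, 3.0 and 1.52, and *3110062M04Rik* at 1.57, 4.91 and 2.35, so each of the 4 had its highest value in EpiSCs. *Agbl3* was under 1 RPKM in each state after scaling. *2010107G12Rik*, a partner in WT ESCs alone, went the other way, at 0.427 RPKM in WT ESCs and 0.116 scaled RPKM in EpiSCs. *Gm11157* and *Npn2* were listed at 0 in each state. A link of these values with *Stra8* was not tested.

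**Figure D5:**
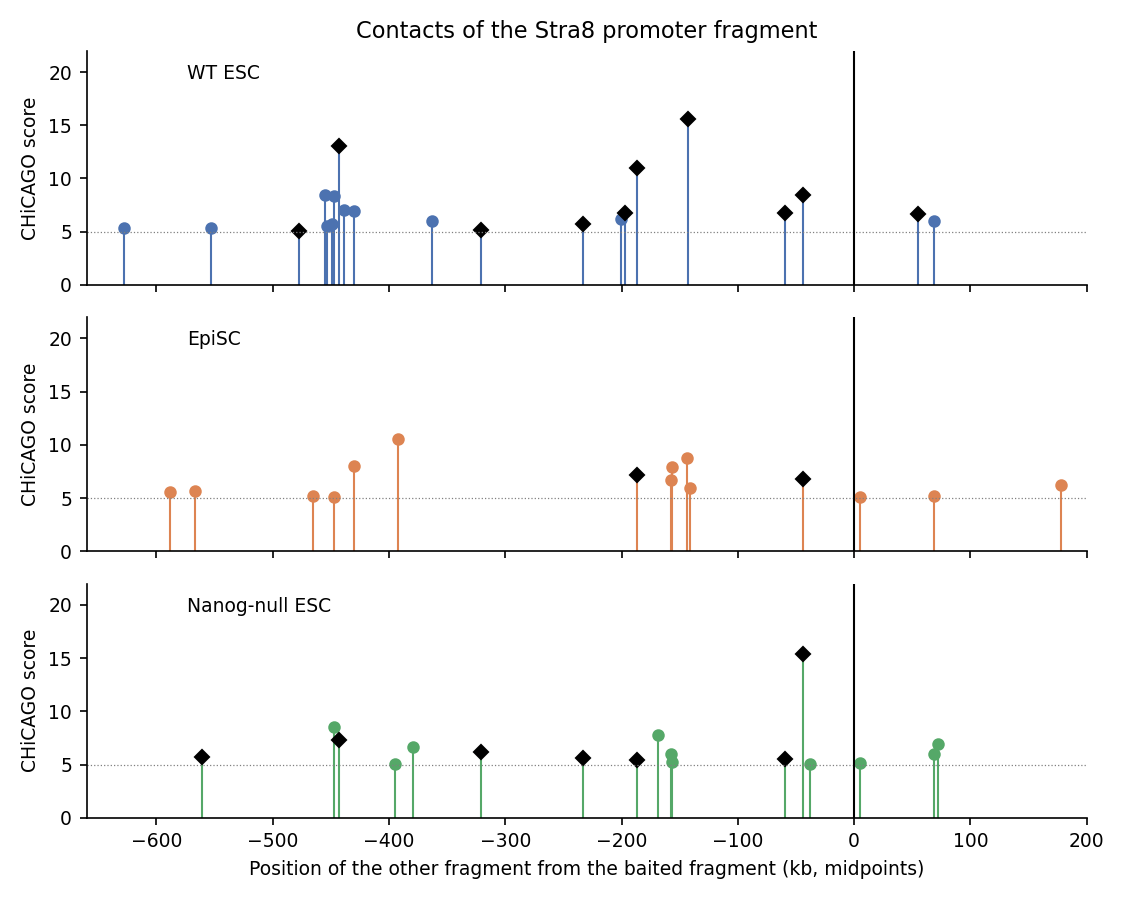
CHiCAGO score of each listed contact of the *Stra8* bait against the position of the other fragment (kb from the bait, midpoints; negative is upstream), 1 panel per cell state; black diamonds are contacts with another baited promoter fragment and circles all others. Diamonds number 10 in WT ESCs, 7 in *Nanog*-/- ESCs and 2 in EpiSCs.

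*Rara* was contacted from inside its own gene. Its bait (chromosome 11, 98921166 to 98944166) had 4 different partners, all downstream. The nearest, 17.6 kb away within the gene (98945406 to 98955191) and baited for the small RNA gene *U6.37*, was listed in all 3 states with 68, 71 and 48 reads and scores of 17.2, 25.1 and 22.8. The bait of *Gjd3*, a connexin gene, 48.6 kb away (98977906 to 98984667), was listed in all 3 as well, with 16, 13 and 17 reads. Read from the other end, these 2 pairs had 52 and 18 reads in *Nanog*-/- ESCs. The fragment 28.4 kb away (98955192 to 98966886) was listed in WT ESCs (17 reads, score 5.81) and EpiSCs (13 reads, 5.46) and not in *Nanog*-/- ESCs. It is one of the fragments that the study lists as an ESC super-enhancer, a dense cluster of enhancers, the only such fragment among the 117 pairs. The study set aside super-enhancers that overlap baited fragments, and its larger second set of super-enhancers was not compared here. Other partners may therefore lie in super-enhancers. A fragment at the 3′ end of the gene was listed in EpiSCs (14 reads, score 8.69). *Gjd3* was under 1 RPKM in each state.

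That super-enhancer fragment also holds an internal start of *Rara* and the only DR5 among the partners of the 3 receptor genes. The repeat lies outside annotated exons, 388 bp before a transcript start at 98960412 (GENCODE vM21), and is shown with 100 bases on either side, with the DR5 in capitals.
Rara internal DR5 (chr11:98959908-98960124, plus strand): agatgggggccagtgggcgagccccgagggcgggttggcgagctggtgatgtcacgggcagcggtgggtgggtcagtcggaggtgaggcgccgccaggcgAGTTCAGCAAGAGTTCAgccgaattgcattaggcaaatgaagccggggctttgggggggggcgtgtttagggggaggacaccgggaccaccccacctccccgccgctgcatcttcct

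*Rarg* and its partners lay in a dense stretch of genes. The bait (chromosome 15, 102255588 to 102262703) had 15 different contacts, of which 10 were with other baited promoters and all overlapped exons. In WT ESCs all 6 contacts lay downstream of the gene. In EpiSCs 5 of 8 and in *Nanog*-/- ESCs 3 of 7 lay upstream. The promoters of *Soat2*, a cholesterol esterification gene, and *Igfbp6*, a growth factor binding protein gene, were contacted in all 3 lists. The *Soat2* pair, 108 kb apart, had 23, 17 and 12 reads and scores of 7.78, 7.94 and 6.76, and the *Igfbp6* pair, 113 kb apart, had 17, 15 and 12 reads. That of *Tenc1* was contacted in WT ESCs alone (159 kb, 14 reads). The promoter contacts listed in EpiSCs alone were those with *Mfsd5* (18.4 kb, 48 reads), *Espl1* (38.2 kb, 25 reads), *Myg1* (78.6 kb, 12 reads), *Amhr2* (186 kb, 9 reads) and *Gm10337* (245 kb, 6 reads). Those in *Nanog*-/- ESCs alone were with *Sp1* (153 kb, 9 reads) and *Map3k12* (258 kb, 7 reads). A contact at 6.10 kb, inside *Rarg*, was listed in both ESC lines with 121 and 79 reads and scores of 5.50 and 6.57. The highest score in any list was 7.94.

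The *Rarb* bait (chromosome 14, 16818038 to 16819613, 1576 bp) covers the most upstream starts of the gene. Its single contact, in EpiSCs, reached an intergenic fragment 345 kb upstream (17163573 to 17164721) with 5 reads and a score of 5.26. The start whose promoter holds the DR5 printed above lies on another HindIII fragment (16573150 to 16577791), 243 kb from that bait. This fragment was an end of no pair in any of the 3 lists, so no contact of the DR5 promoter of *Rarb* was listed. The lists cannot tell a fragment that was not baited from one without a contact that passed the score.

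*Aldh1a2* (chromosome 9, bait 71211676 to 71223094) had 9 contacts in EpiSCs, 6 in WT ESCs and 1 in *Nanog*-/- ESCs, all downstream, with no other bait and with 0 pairs in all 3 lists. Of 14 different partners 11 were intergenic and 3 lay in an intron of *Myzap*. The partners found in both WT ESCs and EpiSCs lay 96.8 kb away (17 and 15 reads) and 225 kb away (11 and 8 reads). The highest score in EpiSCs was 9.61 from 9 reads, at 399 kb (71615395 to 71616531), and the touching fragment at 401 kb was listed in WT ESCs (8 reads, score 5.81). The highest score in WT ESCs was 7.84 from 17 reads at 147 kb (71361609 to 71367214). The only partner in *Nanog*-/- ESCs lay 140 kb away (9 reads, score 5.72). Counting contacts of at least 10 reads alone, *Aldh1a2* had 3 in EpiSCs, 5 in WT ESCs and 0 in *Nanog*-/- ESCs, so the order of the first pair turned.

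*Crabp1* (chromosome 9, bait 54763764 to 54777055) had 3, 1 and 6 contacts. The intergenic fragment 18.8 kb downstream (54787358 to 54791112) was listed in all 3 states with 56, 37 and 35 reads and scores of 7.67, 6.69 and 9.66. The fragment at 11.1 kb was listed in both ESC lines with 92 and 62 reads. The other 4 contacts of *Nanog*-/- ESCs lay between 15.8 and 48.3 kb downstream with 14 to 34 reads, and the whole list of these cells is of shorter range (median 74.1 kb). In WT ESCs *Crabp1* also contacted the promoter of *Dnaja4*, a chaperone gene, 71.8 kb upstream (24 reads, score 5.51).

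*Crabp2* (chromosome 3, bait 87940747 to 87954277) had 8, 2 and 5 contacts, and 7 of its 10 partners were baited promoters. *Isg20l2*, an RNA-processing gene 17.6 kb upstream, was contacted in all 3 states with 36, 21 and 16 reads and scores of 12.1, 8.32 and 7.25. *Bcan*, the brevican gene, 50.1 kb downstream, was contacted in both ESC lines (18 and 11 reads, scores 11.4 and 9.75), and *Apoa1bp*, 110 kb downstream, likewise (8 and 5 reads). *Insrr* and *Ttc24* were contacted in WT ESCs alone (8 and 6 reads) and *Hapln2* in EpiSCs alone (6 reads). *Isg20l2* (68.6, 59.1 scaled and 72.2 RPKM) and *Apoa1bp* (61.2, 85.2 scaled and 55 RPKM) were expressed in every state, while *Bcan*, *Insrr*, *Hapln2* and *Ttc24* were at 1.29 RPKM or less.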

How the data were processed

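The authors mapped PCHi-C reads with HiCUP, scored HindIII fragment pairs with CHiCAGO and deposited 1 list per cell type, combined over replicates, with the read count and the score of each pair. The submitters' processing notes also name Bowtie 1.1.0, Trim Galore, TopHat and DESeq2. RNA-seq values are RPKM, which the authors deposited as medians per group, so depth is unknown and replicates cannot be separated. The same table holds the authors' log2 fold changes and p-values, which were not used. Its BT12 column was taken as the *Nanog*-/- line from the line's name and the series' design text. Pairs given from either end were merged and kept the higher score. Unequal read counts at the ends occurred in 29 of 7324 such pairs in WT ESCs, 13 of 5593 in EpiSCs and 1217 of 7297 in *Nanog*-/- ESCs. Distances join fragment midpoints. Both ends of all 117 partner fragments fall on HindIII sites of GRCm38. Exons and introns are those of protein-coding genes in GENCODE vM21 (GRCm38). Fragments of 2 chromosomes were not searched for half-sites. Scripts in Python 3.11.15 (numpy 2.4.6, scipy 1.17.1, pysam 0.24.0) were tested on simulated data. The 8 genes and the lists were chosen with earlier results of these data known. Named genes are the 8 members with their contacts, the 5 wider-list genes with the largest difference per direction and comparison, the 3 genes nearest to the 2 members of largest range, genes baited at the other end and marker genes. Other wider-list genes past 2-fold were named after their values were seen. ChIP-seq samples were not analysed here. One gene of the wider list and one contacted gene are not reported here.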

Additional observations from a re-analysis of the deposited data

How the results depend on the processing

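All values are pooled over replicates, so no replicate could be left out. No paired analysis was possible because the files hold only group medians and combined lists. With a pseudocount of 0.1, genes past 2-fold numbered 2569 higher and 2388 lower in EpiSCs and 884 and 549 in *Nanog*-/- ESCs, 1 of the 8 genes was higher in EpiSCs, and the wider list had 14 higher and 2 lower in *Nanog*-/- ESCs. Without scaling, 4702 genes were higher and 904 lower in EpiSCs, and 3 and 1 of the 8. At 3-fold, 1 of the 8 was lower in EpiSCs and 1 higher in *Nanog*-/- ESCs (*Stra8* in both). At a score of 7 or more the 8 baits had 28, 21 and 25 contacts in WT ESCs, EpiSCs and *Nanog*-/- ESCs, and with 10 or more reads 39, 26 and 26. The share of WT ESC contacts listed in EpiSCs was 64.3% at a score of 7 or more and 61.5% when touching fragments counted, beside 57.8% and 53.6% of all pairs. That in *Nanog*-/- ESCs was 75% at a score of 7 or more, beside 60.4%, and 61.5% (49.4% to 72.4%) when touching fragments counted, beside 54.7%. At a score of 7 or more the median distances of the contacts were 189, 192 and 187 kb, in place of 186, 192 and 157 kb. Contacts of 10 reads or fewer rest on few read pairs, and an unlisted pair may have fallen just short of the score.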
